A study of Mus musculus with 8 samples.

Results

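The LIF and STAT3 response genes described here are 10 genes tied to the leukemia inhibitory factor (LIF) pathway of mouse embryonic stem cells: Socs3, Stat3, Lifr, Icam1, Pim1, Pim3, Junb, Sgk1, Socs2 and Cebpd. They were taken by symbol, as all probe sets that the platform annotation gives to 1 of these symbols alone, which made 21 probe sets of 10 genes among 12393 genes measured. Expression was measured on microarrays in J1 cells, an embryonic stem cell line, in 4 groups of 2 arrays: differentiated cells on day 4, Fbxl19 knockdown with shRNA1, Fbxl19 knockdown with shRNA2, and a control hairpin (shControl). The growth medium that the labels give for all 8 samples held serum and recombinant LIF on gelatin. The labels do not say how cells were differentiated, whether LIF was kept until day 4, whether the day 4 cells carried a hairpin, or whether a group's 2 arrays stem from separate cultures. The p-values here thus rest on the spread between arrays alone, and that spread may be technical.

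LIF binds a receptor made of LIFR and gp130 (the product of Il6st), which activates JAK kinases bound to the receptor. These phosphorylate the transcription factor STAT3, which dimerises, enters the nucleus and induces target genes. Among the targets is Socs3, whose product binds gp130 and the JAKs and shuts the signal off. In mouse embryonic stem cells in serum, LIF acting through STAT3 is known to hold back differentiation.

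All values are log2 expression values that the authors deposited, processed with RMA (background correction, quantile normalization and 1 summary value per probe set). The 8 arrays had lower quartiles of 3.79 to 3.90 and medians of 5.70 to 5.81, and shControl replicate 2 had the lowest lower quartile and the highest median. The SD over genes of the difference between the 2 arrays of a group was 0.41 for day 4, 0.20 for shRNA1, 0.22 for shRNA2 and 0.31 for shControl. As a sign of RNA quality, the actin control probe set at the 3′ end exceeded the 5′ one by 0.73 and 0.65 on day 4, 0.70 to 0.76 on the 4 knockdown arrays, and 0.60 and 0.54 in shControl. The shControl arrays were thus the lowest in this measure, and its part in the results was not tested. The level of Fbxl19 itself was not analysed here, as its symbol has no probe set in the annotation. The 8 markers of embryonic stem cells averaged 10.42 and 9.60 on the day 4 arrays and 11.60 to 11.65 on the 6 undifferentiated arrays, and all 8 had group means above 3.79, the lowest lower quartile, in all 4 groups.

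STAT dimers bind DNA at a short palindrome, TTC and GAA with 3 bases between them. Promoter windows of RefSeq (build GRCm38.p6, 250 bases before to 50 bases after a transcription start) were at hand for 8 of the 10 genes, in 15 windows. Windows of Socs2 and Cebpd were not analysed here. The motif TTCNNNGAA, which reads the same on both strands, occurred in 1 window each of Socs3, Icam1 and Sgk1, so in 3 of 15 windows, and in 8.3% of all 32851 windows. Its stricter form TTCCNGGAA, every match of which is also a match of the first motif, occurred in the Icam1 window and in 1.15% of all windows. A form with 1 base changed, TTANNNGAA on either strand, occurred in the Stat3 window, as its reverse complement, and in 10.4% of all windows. The stretches that hold these matches are shown for every gene with a match to any of these forms, Stat3 with the changed form alone. They run 5′ to 3′ on the gene's strand, end before the transcription start, and have the match in capitals.
Socs3, chr11:117969387-117969566, minus strand: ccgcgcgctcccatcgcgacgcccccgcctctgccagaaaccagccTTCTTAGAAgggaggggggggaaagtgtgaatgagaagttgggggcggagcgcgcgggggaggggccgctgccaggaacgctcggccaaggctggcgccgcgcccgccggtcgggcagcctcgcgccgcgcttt
Icam1, chr9:21015760-21015939, plus strand: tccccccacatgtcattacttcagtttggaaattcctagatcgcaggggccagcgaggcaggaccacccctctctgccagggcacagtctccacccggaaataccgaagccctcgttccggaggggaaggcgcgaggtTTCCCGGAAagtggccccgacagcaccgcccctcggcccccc
Stat3, chr11:100939691-100939790, minus strand: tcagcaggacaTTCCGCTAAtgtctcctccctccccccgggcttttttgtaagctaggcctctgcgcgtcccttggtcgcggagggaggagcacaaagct
Sgk1, chr10:21881934-21882033, plus strand: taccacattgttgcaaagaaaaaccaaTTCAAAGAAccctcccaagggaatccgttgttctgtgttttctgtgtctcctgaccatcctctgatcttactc
The match began 154 bases before the start in Socs3, 42 in Icam1, 239 in Stat3 and 223 in Sgk1. Sgk1 had 6 windows, of which the other 5 held no match. A match is a run of letters and not a measured binding site.

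On day 4, 6 of the 10 genes fell against shControl and 1, Cebpd, rose, while Pim1, Junb and Socs2 did not pass the test. Over all genes tested on day 4, 8.73% were called lower and 7.67% higher, 16.4% together. A gene was called when its limma p, adjusted by Benjamini-Hochberg over all 12393 genes in a linear model of the 4 groups, was under 0.05. The median log2 fold change was -1.25 over the 10 genes and -0.001 over all genes. The day 4 arrays were separate from the shControl arrays in 10 of 10 genes, against 50.4% of all genes. In bulk RNA of this kind, fewer cells expressing a gene and less RNA per cell cannot be told apart. The 10 genes were proposed with earlier results of these data known, so their counts describe them and are not independent evidence of a direction.

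**Figure D1:**
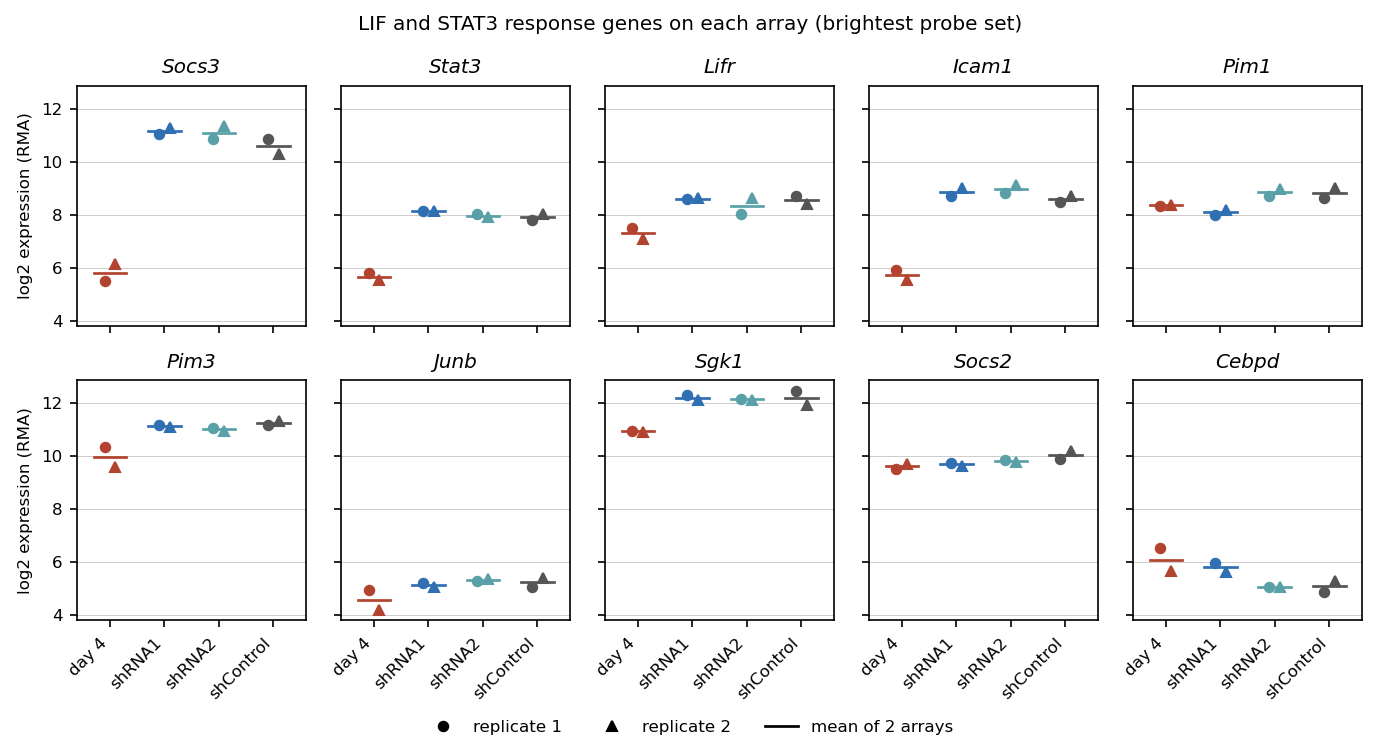
Log2 expression (RMA) of the brightest probe set of each of the 10 genes on each array, with replicate 1 as circles, replicate 2 as triangles and the mean of the 2 arrays as a line. The day 4 arrays lie below all 6 undifferentiated arrays for Socs3, Stat3, Lifr, Icam1, Pim3, Junb and Sgk1, and not for Pim1, Socs2 and Cebpd.

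Socs3, the feedback inhibitor, had log2 values of 5.51 and 6.15 on the day 4 arrays, 11.05 and 11.27 with shRNA1, 10.86 and 11.33 with shRNA2, and 10.86 and 10.30 in shControl. The day 4 arrays lay far below the other 6, among which the hairpins overlapped each other and both shControl arrays were the lowest. The gene fell by 4.75 ± 0.26 on the log2 scale (SE; limma adjusted p = 1.10e-05), a 26.9-fold lower level on day 4. Its 95% interval was 17.8-fold to 40.8-fold. Group means are of 2 arrays, whereas the SEs draw on the spread within all 4 groups unless stated. With only day 4 and shControl in the fit, the SE of Socs3 was 0.28 (adjusted p = 0.000107). By group means the order was shRNA1 (11.16), shRNA2 (11.10), shControl (10.58) and day 4 (5.83), and only the step from shControl to day 4 was larger than the spread of its neighbours. The 2 other probe sets of Socs3 fell as well, by 4.22 and 4.97 (adjusted p over all probe sets 8.30e-06 and 4.56e-05). For the latter, day 4 replicate 1 read 3.79, level with the lowest lower quartile, so its size is uncertain.

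Stat3, the transcription factor itself and also 1 of its own known targets, had 5.81 and 5.53 on day 4, 8.14 and 8.14 with shRNA1, 8.01 and 7.93 with shRNA2, and 7.79 and 8.04 in shControl. The undifferentiated arrays lay close together, and both day 4 arrays lay well below the lowest of them. The gene fell by 2.25 ± 0.15 (adjusted p = 3.04e-05), 4.76-fold lower on day 4 with an interval of 3.75-fold to 6.03-fold. A second probe set fell by 2.32, whereas the third, with 4.37 and 4.35 on day 4 and 4.70 and 4.30 in shControl, had -0.14 (adjusted p = 0.638) and lay under the array medians in every group.

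Lifr, the ligand-binding receptor chain, had 7.49 and 7.10 on day 4, 8.58 and 8.65 with shRNA1, 8.02 and 8.64 with shRNA2, and 8.70 and 8.41 in shControl. The day 4 arrays lay below the lowest undifferentiated array, shRNA2 replicate 1, but by less than in Socs3 or Stat3. The gene fell by 1.25 ± 0.22 (adjusted p = 0.00524), 2.38-fold lower on day 4. A second probe set had 3.19 and 3.19 on day 4, against 4.54 and 4.87 in shControl, and was called lower (adjusted p over all probe sets 0.000557). No size is given for that fall, because its day 4 values lay below 3.79, the lowest lower quartile. The third had -0.29 (adjusted p = 0.402), with 4.98 on both day 4 arrays, against 5.46 and 5.08 in shControl.

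Icam1, a cell adhesion molecule known to be induced by STAT3, was measured by 1 probe set. It had 5.93 and 5.56 on day 4, 8.69 and 8.99 with shRNA1, 8.81 and 9.12 with shRNA2, and 8.47 and 8.72 in shControl. It fell by 2.85 ± 0.19 on day 4 (adjusted p = 3.02e-05), 7.21-fold with an interval of 5.35-fold to 9.72-fold. After Socs3 this was the largest change of the 10 genes, in the brightest probe sets.

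The PIM genes encode constitutively active serine/threonine kinases that promote survival. Pim3 had 10.33 and 9.59 on day 4, 11.17 and 11.09 with shRNA1, 11.06 and 10.95 with shRNA2, and 11.16 and 11.34 in shControl, and it fell by 1.29 ± 0.22 on day 4 (adjusted p = 0.00420). The gap between its day 4 arrays was 0.74, wider than in the other groups, and without shControl replicate 2 the call was lost (adjusted p = 0.0553). A second Pim3 probe set fell by 1.36 and the third had -0.51 (adjusted p = 0.0810). Pim1 had 8.32 and 8.39 on day 4, against 8.63 and 9.00 in shControl, a difference of -0.46 ± 0.17 that was not called (adjusted p = 0.102). Its other probe set fell by 0.59 ± 0.14 (adjusted p over all probe sets 0.0221), so the call for Pim1 on day 4 depended on which probe set stood for the gene. Of 19 alternatives, Pim1 was called under 2: averaged probe sets (adjusted p = 0.0256) and the replicate number as a block (adjusted p = 0.0487). With all 6 undifferentiated arrays as the comparison group, it had -0.24 (adjusted p = 0.281). In both Pim1 probe sets the shRNA1 mean lay below that of day 4 (8.10 against 8.35, and 5.97 against 6.26).

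Sgk1, a kinase activated downstream of PI3 kinase, had 10.95 and 10.92 on day 4, 12.30 and 12.11 with shRNA1, 12.15 and 12.11 with shRNA2, and 12.44 and 11.93 in shControl. It fell by 1.25 ± 0.18 on day 4 (adjusted p = 0.00158), 2.37-fold, and its day 4 arrays were nearly equal. Junb, an AP-1 transcription factor and early response gene, had 4.98 and 4.22 on day 4, against 5.09 and 5.41 in shControl. That difference, -0.65 ± 0.23, was not called (adjusted p = 0.0968). With all 6 undifferentiated arrays as the comparison group, Junb fell by 0.64 (adjusted p = 0.0397). Without day 4 replicate 1 it fell by 1.02 (adjusted p = 0.00415), and without day 4 replicate 2 it had -0.27.

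Socs2, a suppressor of cytokine signalling best known for damping growth hormone receptor signals, had 9.52 and 9.72 on day 4, against 9.90 and 10.19 in shControl. The difference was -0.43 ± 0.15 and was not called (adjusted p = 0.0872), and the shRNA1 arrays (9.73 and 9.65) overlapped those of day 4. Its second probe set had -0.25 (adjusted p = 0.343). The 95% intervals of the change in these 2 SOCS genes did not overlap: -0.77 to -0.09 for Socs2 and -5.35 to -4.15 for Socs3.

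Cebpd, a C/EBP transcription factor induced by STAT3 in several cell types, had 6.53 and 5.66 on day 4, 5.97 and 5.64 with shRNA1, 5.09 and 5.07 with shRNA2, and 4.90 and 5.31 in shControl. It rose by 0.99 ± 0.27 against shControl (adjusted p = 0.0376). With only day 4 and shControl in the fit, Cebpd was not called (adjusted p = 0.0905). The day 4 arrays overlapped those of shRNA1. Its second probe set, at 4.25 and 4.11 on day 4 and 4.31 and 3.81 in shControl, had 0.12 (adjusted p = 0.718), and with the mean of both probe sets the change was 0.56 (adjusted p = 0.0550). The call was also lost without day 4 replicate 1 (0.55), without shControl replicate 1 (0.78) and without shControl replicate 2 (1.20). It was kept without day 4 replicate 2, where the change was 1.43. Without any 1 of the 4 knockdown arrays, which enter only the estimate of the spread, the adjusted p was 0.0535 or 0.0613.

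**Figure D2:**
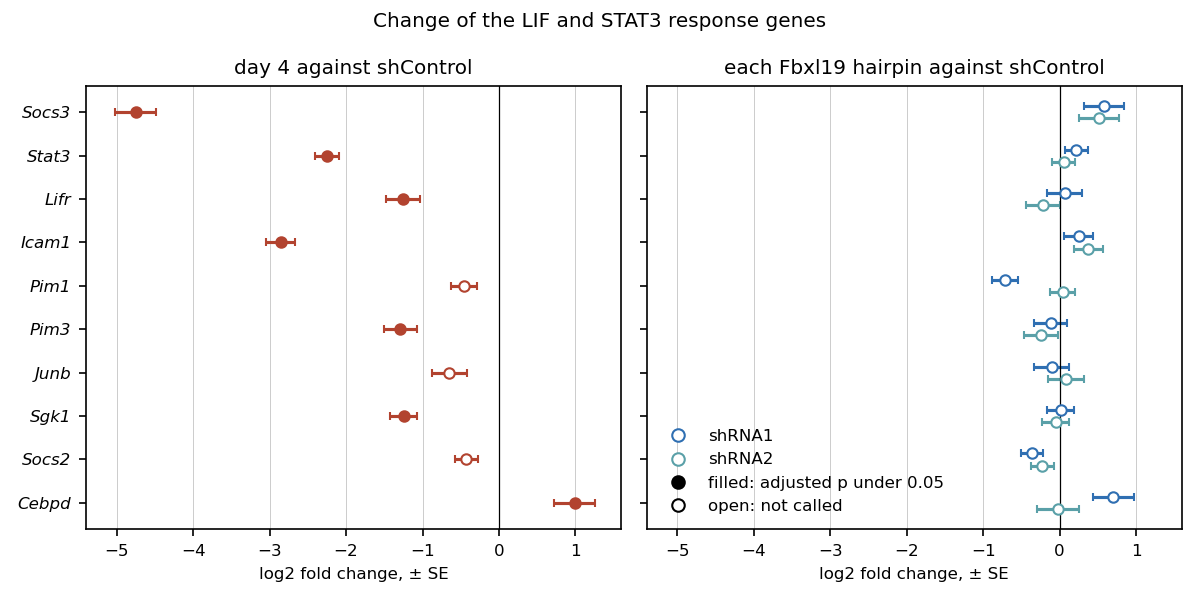
Log2 fold change with its standard error (limma) for the 10 genes on day 4 (left) and with each Fbxl19 hairpin (right), always against shControl. Group means are of 2 arrays, and the standard error draws on the spread within all 4 groups. Filled points had an adjusted p under 0.05: 7 genes on day 4, from -4.75 for Socs3 to 0.99 for Cebpd, and 0 with either hairpin.

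Over every probe set, 12 of the 21 fell on day 4 and 1 rose when adjusted over all 22626 probe sets, of which 14.2% were called and 7.78% called lower. Of the 21, 19 had a value below 0, and both above 0 were those of Cebpd. The day 4 arrays lay below all 6 undifferentiated arrays in 7 of the 10 genes, against 17.1% of all genes. Probe sets of 1 gene share their RNA and are not replicates.

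**Figure D3:**
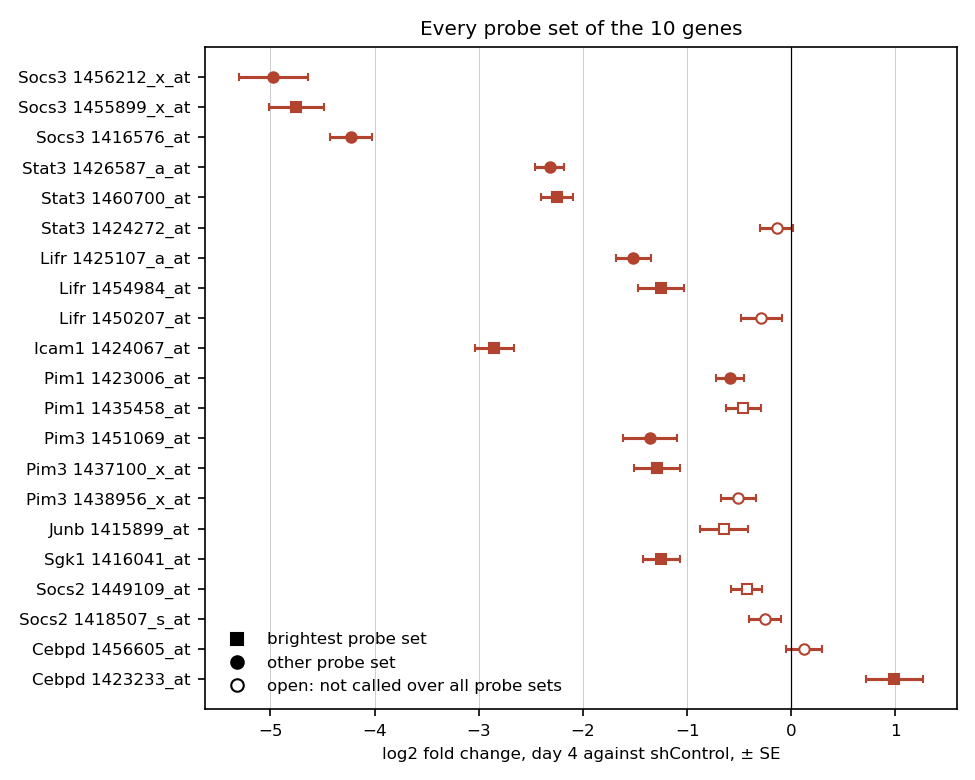
Log2 fold change on day 4 against shControl, with its standard error, for each of the 21 probe sets, squares marking the brightest probe set of a gene. All 3 probe sets of Socs3 lie between -4.97 and -4.22, while Stat3 and Lifr each have 1 probe set (-0.14 and -0.29) that was not called. The size at -4.97 is uncertain, as day 4 replicate 1 of that probe set read 3.79, level with the lowest lower quartile. For a second Lifr probe set, whose day 4 values lie under the lower quartile, the size of the fall is uncertain.

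With the Fbxl19 hairpins, 0 of the 10 genes were called in the mean of both against shControl, with shRNA1 alone or with shRNA2 alone. The share of all genes called by limma was 0.0726% for the mean of both hairpins, 0.242% for shRNA1 and 0% for shRNA2. At an unadjusted p under 0.05 there were 2 of the 10 genes for the mean of both (Socs3 and Pim1), against 8.42% of all genes, 3 for shRNA1 (Pim1, Socs2 and Cebpd), against 9.82%, and 0 for shRNA2, against 5.1%. The median change was -0.01 over the 10 genes in the mean of both hairpins and -0.004 over all genes. Both hairpins were compared with the same 2 control arrays, so their values are not independent of each other. With the replicate number as a block, 0 of the 10 genes were called as well, while the calls over all genes numbered 22 for the mean of both (9 without the block), 49 for shRNA1 (30 without) and 0 for shRNA2.

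The receptor and the transcription factor had small differences from the control. Lifr had 0.06 ± 0.22 with shRNA1 and -0.22 ± 0.22 with shRNA2, and Stat3 had 0.22 ± 0.15 and 0.05 ± 0.15. In the mean of both hairpins the 95% interval of the difference was -0.52 to 0.36 for Lifr and -0.16 to 0.43 for Stat3, so changes of the size seen on day 4 lay outside both.

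Socs3 was 0.55 ± 0.23 in the mean of both hairpins (unadjusted p = 0.0402, adjusted p = 0.564), with 0.58 for shRNA1 and 0.52 for shRNA2. All 4 knockdown arrays (10.86 to 11.33) lay above the control arrays, but shRNA2 replicate 1 and shControl replicate 1 were nearly equal. Arrays of the 2 sides did not overlap in 20.1% of all genes, and in 2 of the 10 genes here, Socs3 and Socs2. For shRNA1 alone the arrays did not overlap in 5 of the 10 genes, against 43.4% of all genes, and for shRNA2 alone in 4, against 33.1%. The other Socs3 probe sets had 0.45 ± 0.28 and 0.06 ± 0.17, and the arrays of both overlapped between knockdown and control. For the brightest probe set the difference was 0.27 without shControl replicate 2 and 0.83 without shControl replicate 1. Icam1 had 0.31 ± 0.16 (adjusted p = 0.661), with 0.43 without shControl replicate 2 and 0.19 without shControl replicate 1, and Sgk1, Junb and Pim3 had -0.02, -0.01 and -0.18. Socs2 had -0.29 ± 0.13 (adjusted p = 0.592), with 9.65 to 9.87 on the knockdown arrays and 9.90 and 10.19 in shControl. It had -0.15 without shControl replicate 2 and -0.44 without shControl replicate 1.

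The pair of genes that stood apart between the hairpins was Pim1 and Cebpd. Pim1 had 8.73 and 8.98 with shRNA2, 8.01 and 8.19 with shRNA1, and 8.63 and 9.00 in shControl, so that the shRNA1 arrays were the lowest of the undifferentiated groups. The difference of shRNA2 over shRNA1 was 0.75 ± 0.17 (unadjusted p = 0.00162, adjusted p = 0.271), and it was not called over all genes, of which 0.105% were. Array weights were the 1 alternative of 18 under which it was called (adjusted p = 0.0224). The other Pim1 probe set had the same order of shRNA2 over shRNA1, with 6.58 and 6.63 with shRNA2, 6.07 and 5.86 with shRNA1, and 6.80 and 6.89 in shControl. Its difference was 0.64 ± 0.14 between the hairpins (adjusted p over all probe sets 0.294) and -0.88 ± 0.14 for shRNA1 against shControl (adjusted p = 0.0655). For the brighter probe set, shRNA1 against shControl gave -0.71 ± 0.17 (adjusted p = 0.185). With shRNA2 against shControl, the brighter had 0.04 ± 0.17 and the dimmer -0.24 ± 0.14. In the mean of both hairpins the brighter had -0.34 ± 0.15 (adjusted p = 0.580). The dimmer had -0.56 ± 0.12 there (adjusted p over all probe sets 0.211), and neither was called.

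Cebpd had 5.09 and 5.07 with shRNA2 and 5.97 and 5.64 with shRNA1, a difference of -0.73 ± 0.27 (adjusted p = 0.826). Its dimmer probe set had -0.16 ± 0.17. At an unadjusted p under 0.05, Pim1 and Cebpd were 2 of the 10 genes between the hairpins, against 5.15% of all genes. The arrays of the hairpins did not overlap in 6 of the 10 genes, against 43.6% of all genes.

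**Figure D4:**
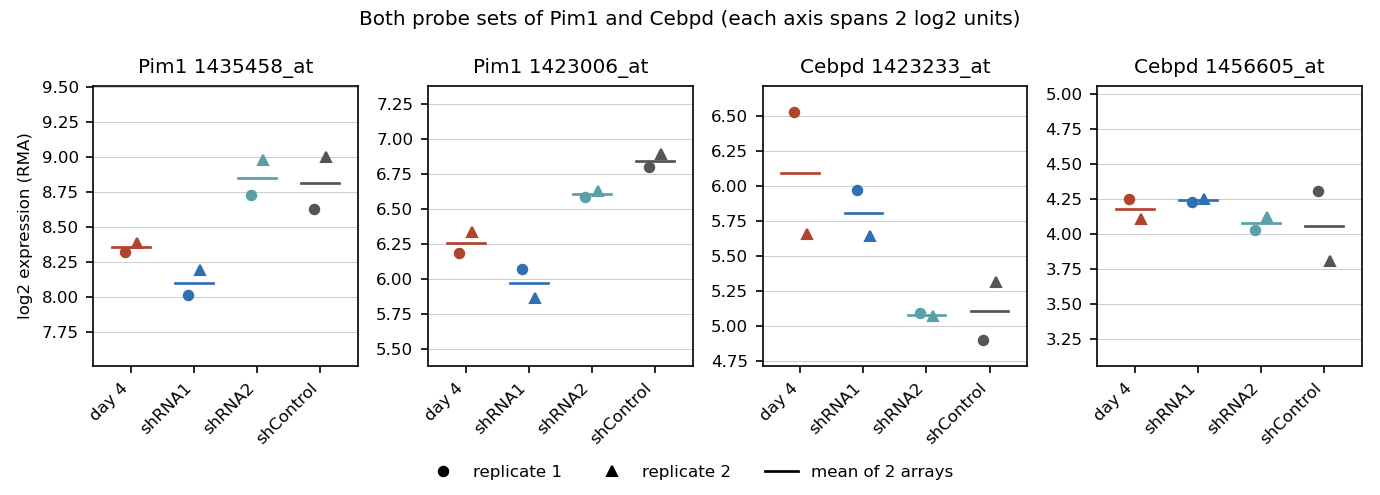
Log2 expression of both probe sets of Pim1 and of Cebpd on each array, each axis spanning 2 log2 units, with the mean of the 2 arrays as a line. Both Pim1 probe sets are higher with shRNA2 than with shRNA1 (differences of 0.75 and 0.64), while for Cebpd the brighter probe set differs by -0.73 and the dimmer by -0.16.

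Of 104 other genes listed for the pathway, 91 were measured as genes outside the 10. On day 4, 6 of the 91 rose, 15 fell and 70 were not called, 23.1% called against 16.4% of all genes. With the mean of both hairpins and with shRNA2 alone 0 of the 91 were called by limma, and with shRNA1 1 was, Gbx2. The median change on day 4 was 0.02 over the 91 genes.

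Among receptors and cytokines of the gp130 family, 1 gene rose and 1 fell on day 4 of 10 measured. Il6st, which encodes gp130, had 8.27 and 7.77 on day 4 and 8.67 and 9.00 in shControl and fell by 0.82 ± 0.19 (adjusted p = 0.0176). Lif itself, the ligand gene, had 5.33 and 5.61 on day 4 and 4.87 and 4.81 in shControl and rose by 0.63 ± 0.19 (adjusted p = 0.0490). With shRNA1 Lif had 4.88 and 5.38, so the day 4 arrays overlapped those of shRNA1. The second Lif probe set differed by 0.24. Both signalling chains of the LIF receptor, Lifr and Il6st, were thus lower on day 4 in their brightest probe sets, although of its dimmer probe sets 1 differed by -0.77 and 1 by 0.13.

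Among JAK kinases and STAT factors other than Stat3, 3 fell and 0 rose of 9 measured. Tyk2 fell by 1.03 ± 0.18 (adjusted p = 0.00419), Stat6 by 1.06 ± 0.18 (adjusted p = 0.00386) and Stat4 by 1.52 ± 0.16 (adjusted p = 0.000298). Jak1, the kinase most used by gp130, had -0.05 ± 0.16 and Jak2 had 0.49 ± 0.17 (adjusted p = 0.0887), neither called. Stat5a and Stat5b had -0.23 and -0.16 and were not called either.

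None of 17 other inhibitors and phosphatases, among them the remaining SOCS genes and the PIAS genes, was called by limma on day 4. The smallest adjusted p was 0.0603. Of 13 genes of the adaptors and of the ERK and PI3 kinase arms, 2 fell: Gab1, an adaptor that links gp130 to both arms, by 0.86 ± 0.24 (adjusted p = 0.0427) and the kinase gene Akt2 by 0.48 ± 0.13 (adjusted p = 0.0359).

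Of 28 further targets of LIF or STAT3, 8 fell and 2 rose on day 4. The largest falls were those of the pluripotency factors Klf4 (-4.55 ± 0.37), Gbx2 (-4.12 ± 0.16) and Tfcp2l1 (-3.43 ± 0.57) and of Bcl3, a nuclear IκB protein (-3.83 ± 0.17). Bcl3 had 4.25 and 4.17 on day 4, against 7.89 and 8.20 in shControl. All 4 were called, Tfcp2l1 with the highest adjusted p (0.00355) and with 8.35 and 6.04 on its day 4 arrays. The other Tfcp2l1 probe sets differed by -0.13 and 0.10, with shControl means of 2.69 and 2.50, under the lowest lower quartile. The second Klf4 probe set differed by -4.29. The 2 that rose, named after their values were seen, were Cebpb by 1.71 ± 0.38 and Hif1a by 0.83 ± 0.18. Their other probe sets differed by 1.19 for Cebpb and by 0.75, 0.05 and -0.28 for Hif1a. Gbx2 was the 1 listed gene called in knockdown, with 7.81 and 7.47 with shRNA1, against 8.78 and 8.84 in shControl (-1.17 ± 0.16, adjusted p = 0.0276). With shRNA2 it had 8.46 and 8.28, a difference from shControl of -0.44 (adjusted p = 0.896), and the difference between the hairpins, 0.73, was not called (adjusted p = 0.259).

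Relatives of the targets moved in both directions, 3 of 14 higher and 1 lower. Pim2, the third PIM kinase gene, had 10.02 and 11.09 on day 4, against 6.48 and 6.92 in shControl, and rose by 3.85 ± 0.31 (adjusted p = 6.90e-05), where Pim3 fell and Pim1 was not called. Jun, a family relative of Junb, had 7.79 and 6.89 on day 4, against 3.70 and 4.15 in shControl. It rose by 3.42 ± 0.27 (adjusted p = 6.64e-05). Its shControl replicate 1 value was under the lower quartile, so the size of this rise is uncertain. The second Jun probe set differed by 2.13, with a shControl mean of 3.15. The Fos-like gene Fosl1 was called higher (adjusted p = 0.0304), with 4.30 and 4.06 on day 4, against 3.68 and 3.54 in shControl. Its shControl values were under the lower quartile, so no size is given, and its second probe set differed by -0.06. Sgk2, a relative of Sgk1, fell by 1.72 ± 0.16 (adjusted p = 0.000135).

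**Figure D5:**
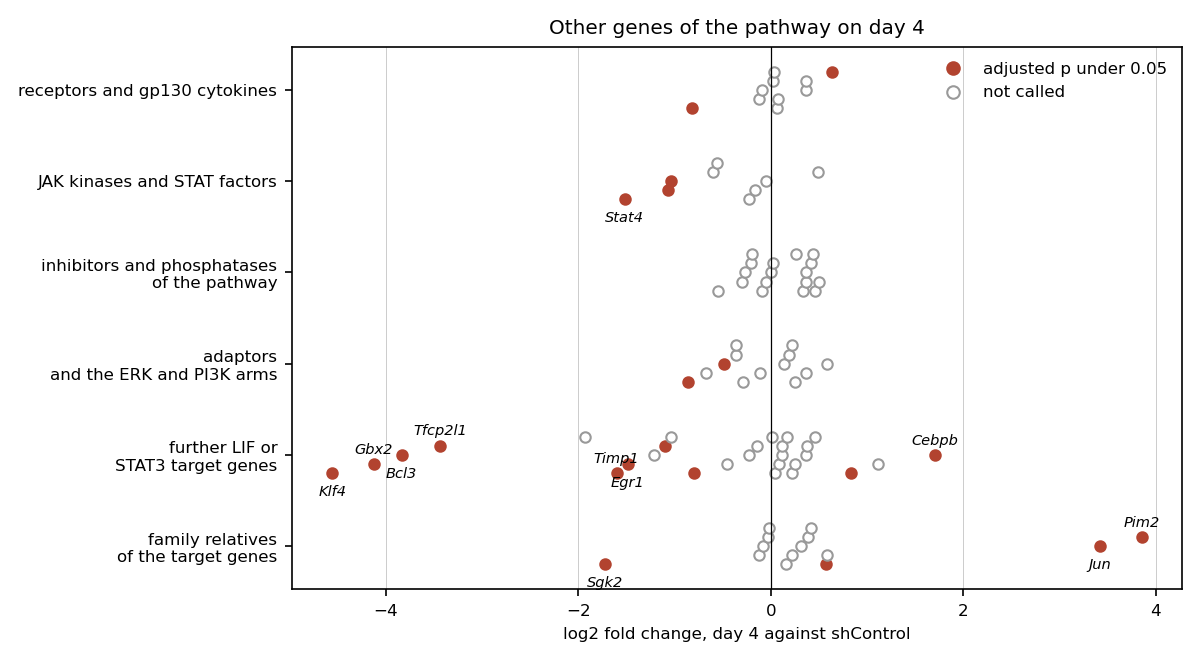
Log2 fold change on day 4 against shControl of 91 other genes of the pathway, in 6 lists, filled where the adjusted p was under 0.05. Most points lie near 0, with Klf4, Gbx2, Bcl3 and Tfcp2l1 between -4.55 and -3.43 and Pim2 and Jun at 3.85 and 3.42. The size for Jun is uncertain, as its shControl replicate 1 value lies under the lower quartile.

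Markers of other cell states moved with the day 4 comparison. Of 8 embryonic stem cell markers 5 fell, while Pou5f1 had means of 12.19 on day 4 and 12.44 in shControl. Of 5 formative epiblast markers 4 rose, and the list averaged 8.20 and 8.95 on the day 4 arrays and 6.35 to 6.83 on the 6 undifferentiated arrays. Of 7 trophoblast markers 4 rose and 1 fell, with a list mean of 6.95 and 6.90 on day 4 and 5.64 to 5.97 otherwise. Fibroblast markers, of feeder cells, averaged 5.17 and 5.04 on day 4 and 5.38 to 5.56 otherwise, with 4 of the 10 group means under 3.79 on day 4 and 5 in shControl. The means of primitive endoderm markers were 4.33 and 4.43 on day 4 and 4.52 to 4.66 otherwise. Mesoderm markers averaged 4.51 and 4.60 on day 4, against 4.61 to 4.84 on the undifferentiated arrays, neural markers 5.68 and 5.50 on day 4, against 5.43 to 5.74, and blood and macrophage markers 4.87 and 4.24 on day 4, against 5.29 to 5.60. Of the last 5 lists, 2 of 10 fibroblast markers (Vim and Fn1), 1 of 8 primitive endoderm (Lama1), 1 of 5 mesoderm (Kdr), 1 of 5 neural (Tubb3) and 2 of 6 blood and macrophage markers (Cd68 and Laptm5) fell on day 4, and 0 were called higher by limma. With shRNA1, 1 marker of all these lists was called against shControl, the formative epiblast gene Otx2, which rose by 1.38 (adjusted p = 0.0218). The part of these shifts in the changes of the 10 genes and of Gbx2 was not tested.

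By Pearson's correlation over the 8 arrays, the genes most like Socs3 were Nrm (r = 0.998), Nanog (r = 0.994) and Rpl39l (r = 0.992). Those most like Stat3 were Mylpf, Aplp1 and Aff1 (r = 0.997, 0.996 and 0.996), and those most like Lifr were Pdcl2, Fcgrt and Tppp3 (r = 0.979, 0.971 and 0.966). These values describe 8 arrays of which the 2 of day 4 stand far from the rest. The sizes differed: Nrm had means of 6.24 on day 4 and 7.09 in shControl, and Nanog 9.91 and 11.62.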

How the data were processed

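Each array's log2 value per probe set was used as the authors deposited it. RMA is the method that the submitters' processing notes name, and its version is not given in the sources used. Of 22690 probe sets, 64 were array controls. Symbols came from the platform annotation and were updated by gene identifier through RefSeq (GRCm38.p6) for 20364 probe sets. A gene was represented by its brightest probe set on average. A model with a mean per group was fitted to 12393 genes with limma 3.58.1 in R 4.3.3 (lmFit, eBayes, 4 residual degrees of freedom), and again to all 22626 probe sets other than controls. The model was also run on simulated arrays, with the same spread in all groups and no replicate effect. That run cannot show how the model handles the unequal spreads of these arrays. Errors are moderated standard errors, and the small number of arrays limits their precision.

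Groups and replicate numbers follow the titles. The knockdown samples' descriptions name further Fbxl genes, whereas titles and source names give Fbxl19, which was kept. Day 4, each hairpin and the hairpins' mean were compared with shControl, and shRNA2 with shRNA1. Named in the text were the 10 genes, up to 4 called genes of each pathway list with the largest change, the core receptor, JAK and STAT genes, and the 3 genes most correlated with Socs3, Stat3 and Lifr. The members, lists and tests were chosen with earlier results of these data known. Alternatives covered every probe set, averaged probe sets, a filter on dim genes, trend and robust eBayes, array weights, fitting just the groups compared, repeated quantile normalization, centring, a 1.5-fold minimum, a replicate block, leaving out each array, and for day 4 all 6 undifferentiated arrays as the comparison group.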

Additional observations from a re-analysis of the deposited data

Results flagged for a closer look

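Junb and Cebpd stood out because their shRNA1 and shRNA2 arrays lay on opposite sides of the shControl mean. Junb had 5.30 and 5.36 with shRNA2 and 5.21 and 5.07 with shRNA1, around a control mean of 5.25, a difference of 0.19 ± 0.23 (limma adjusted p = 1.00). Cebpd had 5.09 and 5.07 with shRNA2 and 5.97 and 5.64 with shRNA1, around a control mean of 5.10, a difference of -0.73 ± 0.27 (adjusted p = 0.826). Neither difference between the hairpins passed the test.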

How the results depend on the processing

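On day 4, Socs3, Stat3 and Icam1 were called lower under all 19 alternatives (-5.12 to -4.43, -2.39 to -1.57 and -3.06 to -2.67). Lifr and Sgk1 were called under 18 and Pim3 under 17, and Cebpd under 8. The count of called genes was 7, and 3 with a minimum change of 1.5-fold. It lay between 5 and 7 when 1 array was left out, 5 being without shControl replicate 2 (Pim3 and Cebpd lost). The count of called probe sets was 13, and 7 with the minimum change, and lay between 10 and 13 when 1 array was left out. Counts over all genes under these settings are not given here, so the counts above describe the 10 genes alone. No day 4 value of the 10 genes changed sign under any of the alternatives. In the 3 comparisons of hairpins with shControl the count stayed 0 under all 18 alternatives, and between the hairpins it was 1 with array weights (Pim1) and 0 otherwise.

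Small hairpin values changed sign, none of them called. With averaged probe sets, Stat3 had -0.014 for both hairpins and -0.041 for shRNA2, Lifr had -0.075 for shRNA1 and 0.049 for shRNA2 against shRNA1, and Pim1 had -0.10 for shRNA2. With arrays centred, Junb had 0.011 and Sgk1 0.0034 for both hairpins. The cause was not tested. When 1 array was left out, the ranges for both hairpins were -0.23 to 0.076 for Lifr, -0.17 to 0.15 for Junb and -0.27 to 0.24 for Sgk1. For shRNA1 they were -0.082 to 0.21 for Lifr, -0.27 to 0.058 for Junb and -0.24 to 0.27 for Sgk1. For shRNA2 they were -0.074 to 0.18 for Stat3, -0.53 to 0.089 for Lifr, -0.15 to 0.23 for Pim1, -0.079 to 0.24 for Junb, -0.31 to 0.20 for Sgk1 and -0.23 to 0.18 for Cebpd. For shRNA2 against shRNA1 they were -0.29 to 0.17 for Socs3, -0.59 to 0.025 for Lifr, -0.032 to 0.28 for Icam1 and -0.16 to 0.028 for Sgk1.

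The same replicate number was used in all groups. Across genes, the replicate differences correlated with r = 0.504 between the hairpins and 0.261 and 0.226 with shControl. For day 4 the values were -0.0221, -0.0776 and 0.0698. Only the pairs of undifferentiated groups thus had r over 0.1. What these correlations reflect was not tested, and the main model leaves the replicate number out. With the replicate number as a block, 8 of the 10 genes were called on day 4, Pim1 being added (adjusted p = 0.0487). Calls over all 12393 genes on day 4 rose as well, from 2033 to 2309. In each of the other comparisons 0 of the 10 genes were called with the block.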
